A study of Mus musculus with 12 samples.

Results

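Gene expression of the heart was compared with that of the cerebrum in mice given phosphatidylserine (PS), a phospholipid of the inner leaflet of cell membranes. The members were chosen by tissue and treatment, as 3 heart and 3 cerebrum arrays of PS-treated mice out of 12 arrays, and every transcript with 1 gene symbol entered, 21218 in all. The other 6 arrays, 3 of heart and 3 of cerebrum, came from mice given the vehicle, medium-chain triglycerides (MCT), and served as a separate set of arrays for the same tissue comparison. All 12 arrays carry the same strain and genotype label, C57BL/6J with a humanized knock-in allele written FDloxP/+, a mouse model of familial dysautonomia, a hereditary neuropathy that affects sensory and autonomic nerves. Mice were 4 months old at the start and were gavaged every other day for 3 months, with PS at 200 mg/kg or with MCT, in 100 µl. The labels conflict in places. The PS arrays' own labels give 200 mg a day, in place of the 200 mg/kg of the design text. The series' design text speaks of 6 FD mice, while the growth protocol speaks of 3 FD and 3 wt mice. The replicates are called biological, but nothing else in the labels ties an array to an animal, so the p-values measure the spread between these arrays.

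Heart and cerebrum are built around different excitable cells. The cardiomyocyte contracts through sarcomeres that calcium from the sarcoplasmic reticulum switches on, and it burns mainly fatty acids in densely packed mitochondria. Cerebral neurons signal through voltage-gated channels and the release of transmitter from synaptic vesicles, live mainly on glucose, and are surrounded by astrocytes, myelin-forming oligodendrocytes, microglia and capillaries with a blood-brain barrier. Both tissues also hold endothelium, mural cells, fibroblasts and macrophages. PS is made in the endoplasmic reticulum by base exchange, is kept inside the cell by flippases, and marks dying cells for uptake when scramblases expose it.

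All values below are log2 intensities, differences are heart minus cerebrum on that scale, and the error given is limma's standard error (SE) with n = 3 arrays per tissue. Because tissue was analysed whole, fewer cells of a type and less RNA per cell cannot be told apart. A gene was called where limma's adjusted p (Benjamini-Hochberg over all transcripts tested) was under 0.05. Lists of genes are described by each gene's brightest transcript over the 6 arrays. Array levels compress near background, so the size of a difference is approximate where the lower tissue's mean lies under the intensity filter of 5.22. Levels of different genes were not compared.

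The defining markers matched the labelled tissues. Myl2, the regulatory light chain of ventricular myosin, read 11.90, 11.84 and 11.86 in the heart arrays and 3.92, 4.03 and 3.99 in the cerebrum arrays. Tnnt2, cardiac troponin T, read 12.52, 12.49 and 12.51 in heart and 6.73, 6.51 and 6.43 in cerebrum. The neuronal marker Snap25, a vesicle fusion protein, read 5.08, 4.40 and 5.08 in heart and 12.44, 12.38 and 12.37 in cerebrum. The tissues did not overlap in any of these genes. Correlations between arrays were 0.989 to 0.992 within heart, 0.989 to 0.994 within cerebrum and 0.843 to 0.852 between the tissues, over transcripts of single arrays.

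Single arrays stood apart in sets of genes. In heart replicate 2, matrix genes were high: Postn (periostin) read 7.02, 10.41 and 7.18 over the heart replicates, and Timp1, a metalloproteinase inhibitor, read 5.26, 8.49 and 5.38. Heart replicate 3 was high for atrial myosin light chains, with Myl7 at 4.16, 4.17 and 6.80 and Myl4 at 6.99, 7.93 and 9.18. Among the PS cerebrum arrays, replicate 3 was high in striatal and pituitary genes. The dopamine receptor Drd2 read 5.55, 4.97 and 8.82 over the cerebrum replicates, and Prl (prolactin) read 5.16, 3.37 and 10.49. Cerebrum replicate 2 differed in sex-linked genes: Xist, the RNA of the inactive X chromosome, read 9.55, 3.32 and 9.86, and the Y-linked Uty read 3.17, 7.23 and 3.17. In heart, Xist read 9.09, 9.13 and 8.92 under PS. In all 6 MCT arrays it lay between 3.34 and 4.03. Apart from PS cerebrum replicate 2, a sex-linked pattern thus moved with treatment and cannot be told apart from it. These genes were chosen after their values were seen, and some of the results that rest on the arrays are given with and without them.

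**Figure D1:**
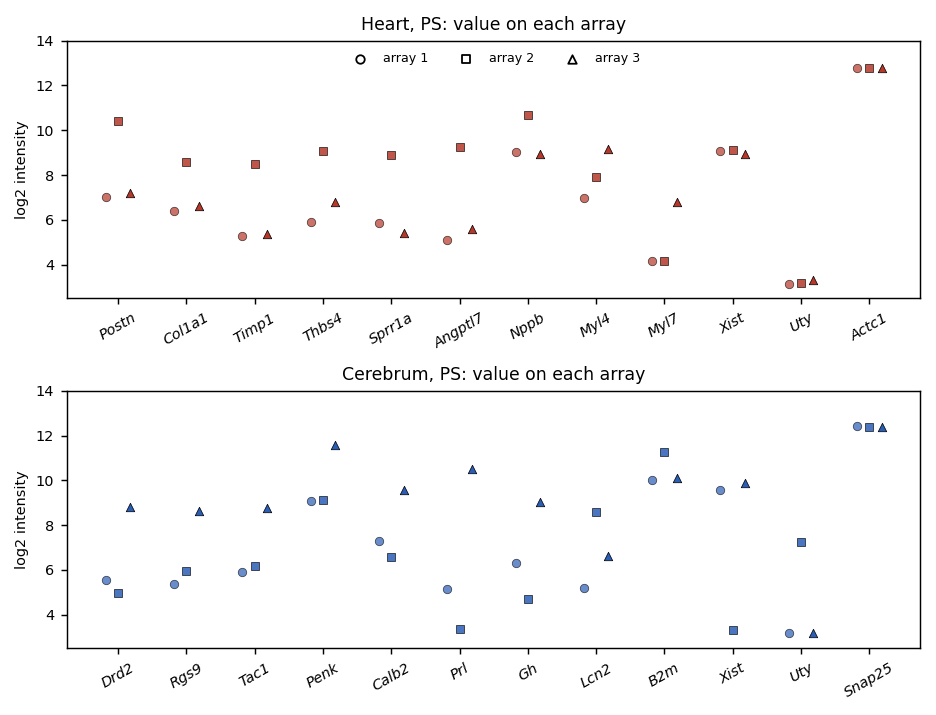
Log2 intensity of genes that set single arrays apart, in the 3 heart and 3 cerebrum arrays under PS (1 symbol per array, shaped by replicate number), with Actc1 and Snap25 for comparison. Postn is high in heart replicate 2 (10.41), Myl7 in heart replicate 3 (6.80), Drd2 in cerebrum replicate 3 (8.82), and Xist is low in cerebrum replicate 2 (3.32).

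Most of the measured transcriptome differed between the tissues. Of 12732 transcripts tested, 9665 were called (75.9%), 4880 higher in heart (38.3%) and 4785 higher in cerebrum (37.6%). These shares are the background against which every count below has to be read. The near-even split depended on scaling: with each array centred on its median, 6116 were higher in heart and 3863 in cerebrum, and with quantile scaling 5495 and 4343. The median difference over all transcripts tested was 0.02 as deposited, 0.24 with centring and 0.12 with quantile scaling. Small differences made up much of the count, since 47.4% of the calls were of 1 or less. Large ones were more often toward cerebrum: 924 transcripts exceeded 3 there against 413 in heart, and 206 exceeded 5 against 112. The median SD within a tissue was 0.12 in both, and the tissues did not overlap in 10177 transcripts (79.9%).

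**Figure D2:**
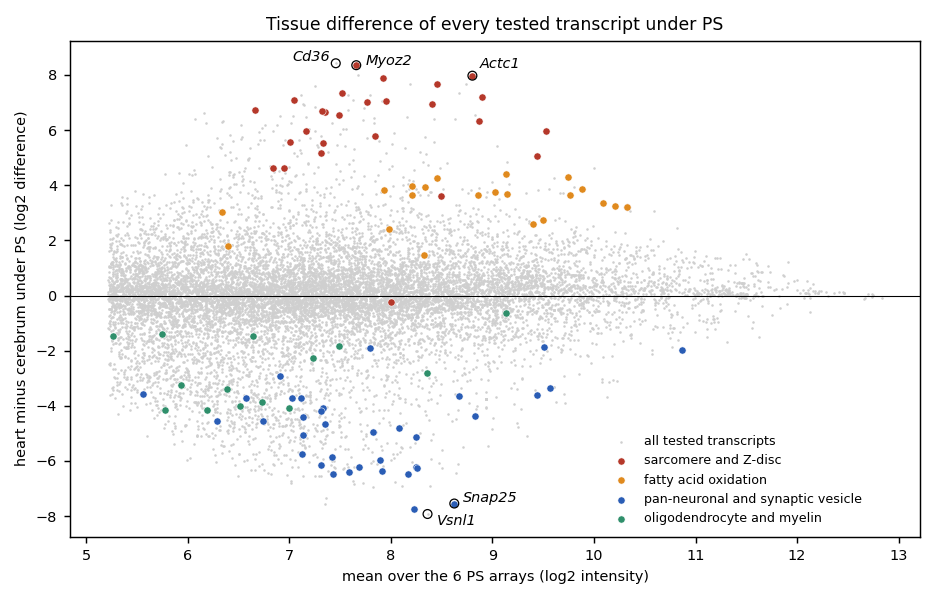
Heart minus cerebrum difference (vertical, log2) of every tested transcript under PS against its mean over the 6 arrays (horizontal, log2 intensity), with 4 sets of genes in colour and rings around the named genes. Cd36 lies highest at 8.42 and Vsnl1 lowest at −7.92, sarcomere genes sit far above 0 and neuronal genes far below, and 5102 of 12732 transcripts lie beyond 1 in either direction.

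The largest differences belonged to genes of muscle and lipid use on one side and of synapses on the other. Cd36, the fatty acid translocase of heart muscle and capillaries, led the heart side with 11.63, 11.67 and 11.71 in heart and 3.06, 3.43 and 3.25 in cerebrum. Its difference was 8.42 ± 0.11 (adjusted p = 4.66e-09), a ratio of about 343 on the array. It was followed by Myoz2 (8.35), which anchors calcineurin at the Z-disc, Ankrd1 (8.0), the actin gene Actc1 (7.97) and Myl2 (7.89). On the cerebrum side, Vsnl1, a neuronal calcium sensor, led with 4.67, 4.04 and 4.49 in heart and 12.33, 12.42 and 12.22 in cerebrum. Its difference was −7.92 ± 0.16 (adjusted p = 1.47e-08). Next came Syt1 (−7.76), the calcium sensor of vesicle fusion, Cacng3 (−7.57), which escorts glutamate receptors, Snap25 (−7.54) and Mal2 (−7.36). In the MCT arrays the 5 leading heart genes differed by 8.24, 8.30, 8.14, 7.67 and 8.09, and the 5 leading cerebrum genes by −7.82, −7.66, −6.94, −8.23 and −7.23, in the same order.

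**Figure D3:**
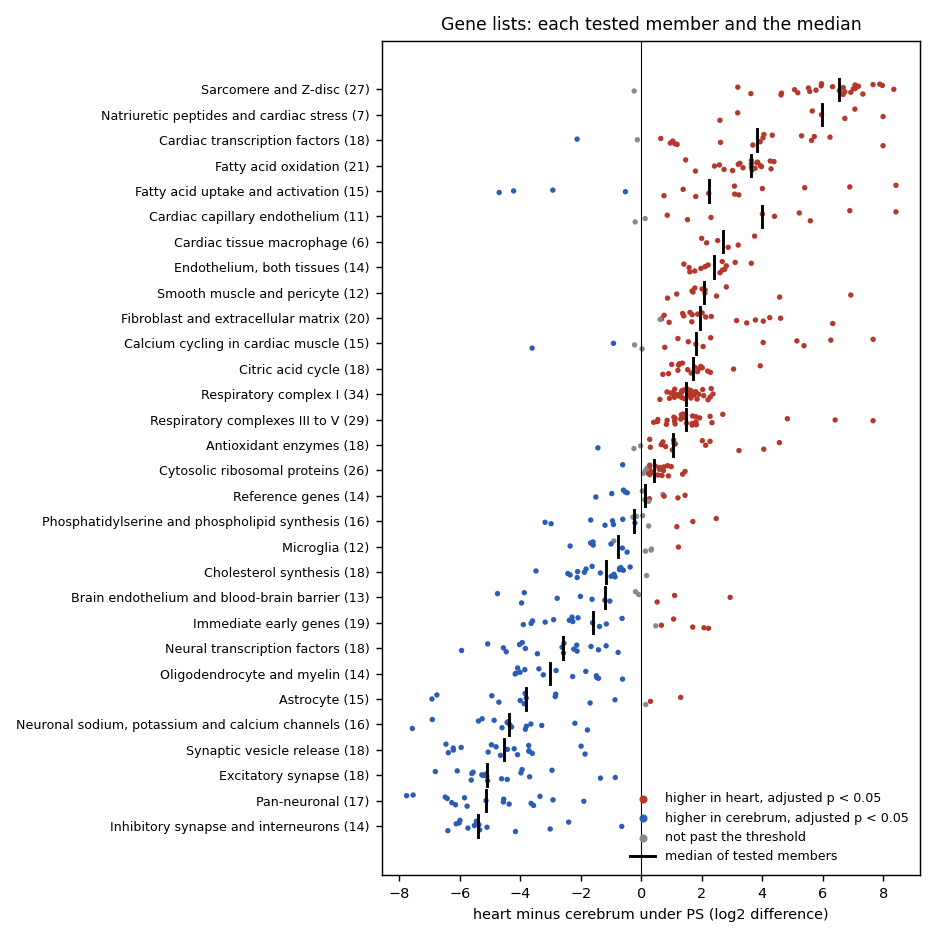
Heart minus cerebrum difference of each gene in a selection of the lists, with 1 row per list, 1 point per tested gene coloured by call, the number tested in parentheses and the median as a bar; values right of 0 are higher in heart. The sarcomere list sits near 6.55 and the pan-neuronal list near −5.13, while the reference genes lie around 0.13.

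Promoters of 4 sarcomere genes are shown because they hold the binding box of serum response factor (CArG box) or of MEF2, both known in muscle promoters, and that of Vsnl1, the leading cerebrum gene, for contrast. The leading heart genes Myl2, Lmod2 and Tnni3 hold neither box. Each line gives the 120 bases before the RefSeq start (GRCm38.p6), 5′ to 3′ on the gene's strand, with the box in capitals. Actc1 lies at chr2:114052876-114052995 (minus strand), Myl3 at chr9:110763558-110763677 (plus), Myoz2 at chr3:123034988-123035107 (minus), Mybpc3 at chr2:91118024-91118143 (plus) and Vsnl1 at chr12:11436579-11436698 (minus).
Actc1: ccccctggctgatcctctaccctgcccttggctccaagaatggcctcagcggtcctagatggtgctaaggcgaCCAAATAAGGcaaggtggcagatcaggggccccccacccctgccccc
Myl3: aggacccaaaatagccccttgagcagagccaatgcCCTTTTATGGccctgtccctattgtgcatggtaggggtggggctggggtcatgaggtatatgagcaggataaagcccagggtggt
Myoz2: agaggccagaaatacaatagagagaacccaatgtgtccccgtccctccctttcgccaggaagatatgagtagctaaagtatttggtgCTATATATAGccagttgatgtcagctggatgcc
Mybpc3: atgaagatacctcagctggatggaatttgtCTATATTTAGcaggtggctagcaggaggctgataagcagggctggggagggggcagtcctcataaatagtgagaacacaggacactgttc
Vsnl1: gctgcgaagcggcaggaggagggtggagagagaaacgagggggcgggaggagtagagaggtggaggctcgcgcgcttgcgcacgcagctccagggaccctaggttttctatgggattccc
The CArG box begins at −47 in Actc1 and at −85 in Myl3, and the MEF2 box at −33 in Myoz2 and at −90 in Mybpc3. Vsnl1 has neither in the 120 bases shown. The 300 bases from 250 before to 50 after its start hold 18 CpG, against 7 in Actc1 and 1 in Myl3. Of the 2 Vsnl1 starts in the table, the one richest in CpG among those without TATAAA on either strand is shown. Among 24 sarcomere genes with a promoter in the table, 5 held a CArG box (20.8%) and 5 a MEF2 box (20.8%), against 1.8% and 0.6% of promoters of all 27025 genes. The CArG genes were Actc1, Ldb3, Myl3, Myom1 and Nebl, and the MEF2 genes were Mybpc3, Myoz2, Synpo2l, Ttn and Xirp2. The letters TATAAA stood in 20.8% of sarcomere promoters and 15.7% of all, and CANNTG, the E-box core, in 87.5% and 75.0%, both strands searched. None of the 19 fatty acid oxidation promoters, the 31 of complex I or the 16 of the synaptic vesicle list held a CArG or MEF2 box. Their median CpG counts were 17, 20 and 21.5, against 6 for the sarcomere list and 8 for all genes. A match is a description of these letters and says nothing about binding in these mice.

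Nearly every sarcomere and Z-disc gene was higher in heart. Of 27 tested, 26 were called toward heart and 1 was not past the threshold, with a median difference of 6.55 against 0.02 over all transcripts. In cerebrum the mean of 20 of the 27 was under the intensity filter. Actc1, cardiac alpha-actin, read 12.80, 12.80 and 12.77 in heart and 4.75, 4.75 and 4.95 in cerebrum (7.97 ± 0.091, adjusted p = 4.66e-09). Among thick-filament genes, Myl3, the essential light chain, read 12.36, 12.24 and 12.27 against 4.26, 4.95 and 4.66 (7.67 ± 0.17, adjusted p = 1.82e-08). Mybpc3, myosin-binding protein C, read 11.58, 11.47 and 11.41 against 4.28, 4.52 and 4.45, a difference of 7.07. The tissues did not overlap in any of these genes, and the heart arrays lay closer together than those of cerebrum in Actc1 and Myl3.

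The thin filament and Z-disc followed the same direction with a wider range. The troponins differed by 7.18 (Tnni3, the inhibitory subunit), 6.33 (Tnnc1, the calcium-binding subunit) and 5.95 (Tnnt2). Tpm1, tropomyosin 1, which many cell types use, differed by 3.19, with 11.95, 11.90 and 11.91 in heart and 8.63, 8.75 and 8.80 in cerebrum. The giant spring protein Ttn differed by 6.68, the M-band protein Myom1 by 7.08, the actin nucleator Lmod2 by 7.33 and the intermediate filament Des by 6.93. Actn2, the Z-disc cross-linker, differed by 5.07 ± 0.40 with the wider error lying in cerebrum, where it read 6.47, 6.27 and 7.96. The exception was Nebl, nebulette. Its brighter transcript read 7.99, 7.90 and 7.78 in heart and 7.97, 8.13 and 8.27 in cerebrum (−0.23, adjusted p = 0.0849). A second Nebl transcript read 10.03, 10.04 and 10.08 against 5.69, 5.52 and 5.86 (4.36, adjusted p = 2.71e-08), so the 2 transcripts of that gene disagreed.

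Genes of calcium handling were more mixed. Of 15 tested, 11 were higher in heart, 2 higher in cerebrum and 2 not past the threshold, with a median of 1.81. Pln, phospholamban, which restrains the calcium pump, read 12.59, 12.52 and 12.62 in heart and 5.37, 5.01 and 4.34 in cerebrum (7.67 ± 0.24, adjusted p = 7.45e-08). The calcium store proteins Casq2 (6.27) and Hrc (5.38), the store's anchor Trdn (5.15) and the dyad protein Jph2 (4.03) were also strongly divided. The release channel Ryr2 differed by only 2.30, reading 11.02, 10.80 and 11.03 in heart and 8.77, 8.81 and 8.38 in cerebrum. Its pump Atp2a2 differed by 1.21 and the L-type channel Cacna1c by 1.81. Fkbp1b, a ryanodine receptor partner, went the other way at 4.63, 5.12 and 3.96 against 8.09, 8.06 and 8.38 (−3.61, adjusted p = 8.76e-06). Slc8a1, the sodium-calcium exchanger, was also called toward cerebrum in its brighter transcript (−0.92), while a second transcript of the gene differed by 1.76.

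Excitation genes were divided by subunit. Of 16 tested, 12 were higher in heart and 3 in cerebrum, and Kcnip2 (0.24, adjusted p = 0.103) was not past the threshold. Popdc2 (7.26) and Bves (5.88), the Popeye membrane proteins of the conduction system, stood apart most. Kcnj5, a subunit of the acetylcholine-gated channel, differed by 4.38 and its partner Kcnj3 by −0.46, a call lost without heart replicate 2 or cerebrum replicate 1 or 2. The KATP subunit Abcc9 differed by 4.58, the delayed rectifier Kcnq1 by 3.78 and the inward rectifier Kcnj2 by 2.15. Kcnd2, a transient outward channel, was higher in cerebrum (−1.16), as was the sodium channel subunit Scn4b (−3.20). Scn4b read 4.67, 4.84 and 5.01 in heart and 7.80, 7.94 and 8.38 in cerebrum, with no overlap.

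Transcription factors of the heart were higher there in 16 of 18 cases, with a median of 3.81. Nkx2-5, the homeobox factor of cardiac specification, read 9.52, 9.54 and 9.51 in heart and 5.44, 5.48 and 5.48 in cerebrum, a difference of 4.06. The T-box factors Tbx20 (6.24) and Tbx5 (5.72), the SRF coactivator Myocd (5.63), Gata6 (5.30), Gata4 (4.33) and Hand2 (4.03) were all called. The metabolic regulators Ppara (3.69), Esrrg (1.19), Esrra (1.11) and Ppargc1a (0.96) were called at smaller sizes. The MEF2 family was split. Mef2c, needed in both heart and cortex development, read 8.84, 8.71 and 8.72 in heart and 11.06, 11.10 and 10.47 in cerebrum (−2.12, adjusted p = 1.34e-05), while Mef2a was higher in heart (0.65) and Mef2d was not past the threshold (−0.13, adjusted p = 0.201).

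Ventricular and atrial lists were tested separately, and the difference between them was not tested. Of 8 ventricular genes, 7 were higher in heart (median 3.16), among them Irx4 (3.93), the ventricular homeobox factor, and Myh7 (5.96). The atrial list was not of 1 direction, with 5 higher in heart, 4 in cerebrum and 2 not past the threshold (median 0.15). After centring these were 6 and 2. Without heart replicate 3 they were 5 and 4, with a median of 0.23. Atrial Myl7 averaged below the filter, and only heart replicate 3 read above it, as given above. All 7 tested genes of the natriuretic and stress list were higher in heart (median 5.96). Nppa, the atrial natriuretic peptide, read 11.31, 12.31 and 10.71 against 4.36, 4.19 and 4.58 (7.07 ± 0.36, adjusted p = 1.05e-06), and Nppb read 9.02, 10.67 and 8.92 against 3.66, 4.09 and 3.89 (5.66). Heart replicate 2 was highest in both. Without it, all 7 were still called and the median was 5.62.

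Most genes of fatty acid supply were higher in heart. Of 15 uptake and activation genes, 11 were higher in heart and 4 in cerebrum (median 2.23). Lpl, the lipase that frees fatty acids at the capillary wall, read 11.78, 11.73 and 11.74 in heart and 6.02, 6.37 and 6.64 in cerebrum (5.41). Its anchor Gpihbp1 differed by 4.01, the capillary and adipocyte carrier Fabp4 by 6.90 and the muscle carrier Fabp3 by 3.08. Genes of stored fat followed: Pnpla2, the triglyceride lipase, at 3.09, Plin5 at 3.23 and Dgat2 at 1.80. The 4 genes higher in cerebrum were Fabp7 (−4.70), the carrier of neural precursors and astrocytes, Acsbg1 (−4.22), Acsl6 (−2.92) and Fabp5 (−0.52).

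Every one of 21 fatty acid oxidation genes tested was higher in heart, with differences from 1.47 to 4.39 (median 3.64). Acadl, the long-chain dehydrogenase, read 11.33, 11.31 and 11.34 in heart and 6.70, 7.22 and 6.89 in cerebrum. Cpt2 (4.27), which rebuilds acyl-CoA inside mitochondria, and Acaa2 (4.29), the thiolase, were near the top. Pdk4 (3.67), which turns off pyruvate oxidation, lay near the median. Cpt1a, the carnitine transferase found in many tissues, differed least (1.47). The 3 genes whose products pass electrons on from these dehydrogenases, Etfa (3.64), Etfb (3.37) and Etfdh (3.76), lay close together. In the MCT arrays the list had 21 of 21 higher in heart and a median of 3.19. Ketone use was divided less: 4 of 5 genes were higher in heart, including the monocarboxylate carrier Slc16a1 (2.94), Acat1 (2.10) and Oxct1 (1.72), and the carrier Slc16a7 was higher in cerebrum (−0.78).

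Mitochondrial respiration was higher in heart throughout, but by less than fatty acid oxidation. All 18 citric acid cycle genes were called toward heart (median 1.71), from 0.72 for Mdh1, which is mostly cytosolic, to 3.94 for Idh2, the NADP-linked enzyme. Idh2 read 11.79, 11.77 and 11.75 in heart and 7.92, 7.75 and 7.83 in cerebrum. All 34 complex I genes were called (median 1.47), within the narrow range of 0.62 (Ndufc2) to 2.37 (Ndufb7). All 29 genes of complexes III to V were called too (median 1.47), and here 3 muscle forms of cytochrome oxidase subunits stood far from the rest. Cox8b read 12.05, 11.98 and 12.05 in heart and 4.48, 4.13 and 4.47 in cerebrum (7.67), Cox7a1 differed by 6.41 and Cox6a2 by 4.83. These directions held with centring and with quantile scaling, since each of the 3 lists kept all of its genes on the heart side. The MCT arrays gave medians of 1.62, 1.61 and 1.53.

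Glycolysis showed no common direction: 12 of 22 genes were higher in heart, 6 in cerebrum and 4 not past the threshold (median 0.37). Glucose uptake differed by transporter, with insulin-dependent Slc2a4 at 5.60, neuronal Slc2a3 at −4.10 and barrier Slc2a1 at −1.63. Enolase split into Eno3 (6.55), the muscle form, and Eno2 (−6.26), the neuronal form, and phosphoglycerate mutase into Pgam2 (5.36) and Pgam1 (−1.12). Aldoc, the brain aldolase, read 4.94, 4.55 and 5.28 in heart and 11.85, 11.83 and 11.85 in cerebrum (−6.92, adjusted p = 3.07e-08). Its muscle relative Aldoa read high in both tissues and was not past the threshold (0.20, adjusted p = 0.0544). Creatine kinase was divided the same way, into Ckmt2 (7.27) and Ckm (6.40) toward heart and Ckmt1 (−4.74) and Ckb (−3.09) toward cerebrum. Creatine supply was split between Gatm (−3.06), which starts its synthesis, and the transporter Slc6a8 (1.09).

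Paired relatives of this kind were followed across gene families. Of 22 tested members that textbooks give as muscle forms, 20 were higher in heart and 1 in cerebrum (Slc8a1), with a median of 3.88. Among 27 tested neural forms, 25 were higher in cerebrum and 1 in heart, with a median of −3.68. That 1 was Pygb, named the brain form of glycogen phosphorylase (1.75). The 25 broadly expressed forms lay between, with 10 toward heart, 13 toward cerebrum and a median of −0.47. Opposites outside metabolism included the ribosomal protein pair Rpl3l (5.97) and Rpl3 (−0.61), the junctophilins Jph2 (4.03) and Jph3 (−3.68), and calmodulin kinase II, with Camk2d at 0.78 and Camk2a at −4.62. Fabp4 (6.90) was the widest of the broad class.

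**Figure D4:**
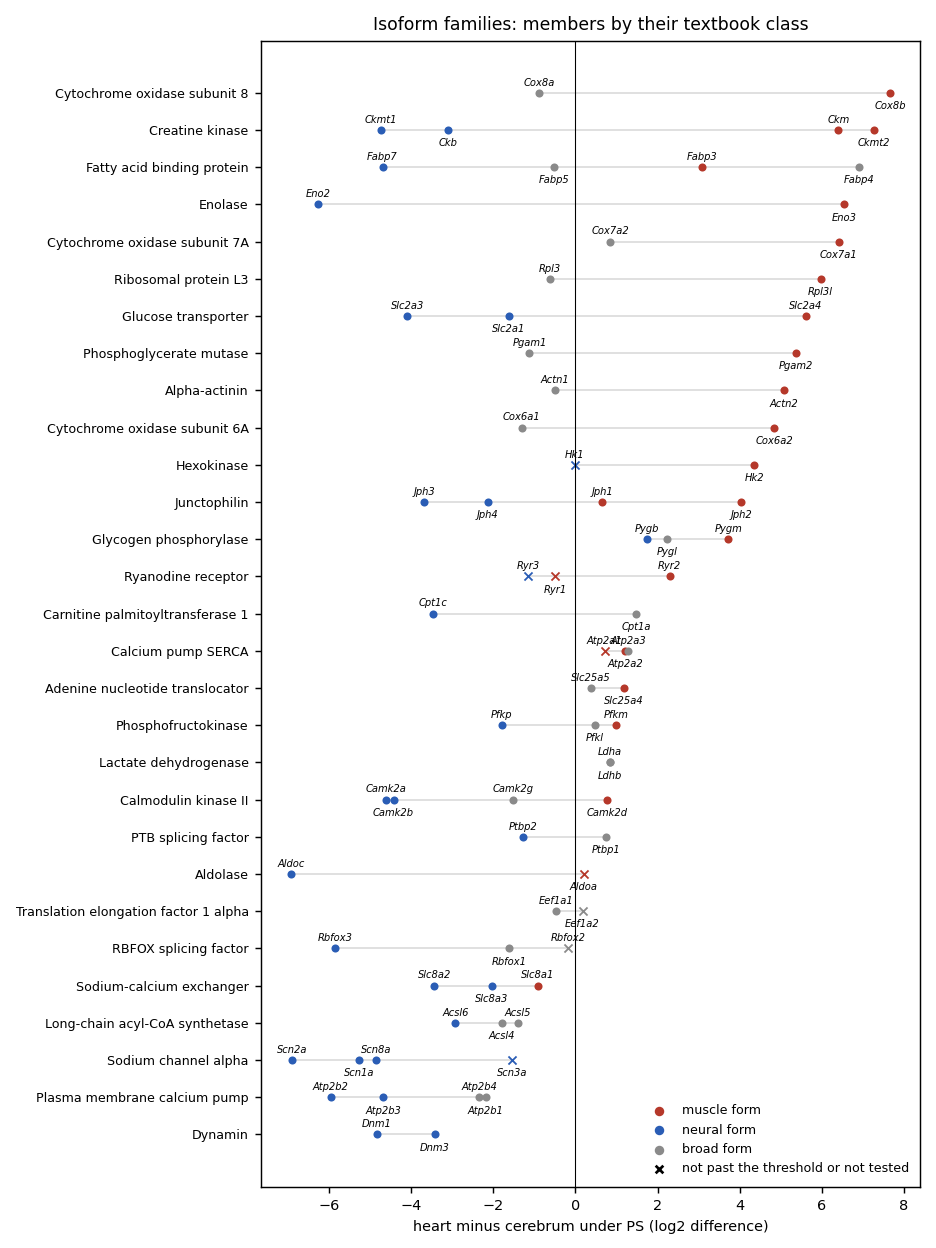
Heart minus cerebrum difference of each gene in families with muscle, neural and broad forms, 1 row per family, points coloured by class and crosses for genes not past the threshold or not tested. Eno3 and Eno2 lie at 6.55 and −6.26, and Ckmt2 and Ckmt1 at 7.27 and −4.74.

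Cholesterol synthesis was the metabolic list with a cerebrum direction. Of 18 genes, 17 were higher in cerebrum and 1, Ebp (0.18, adjusted p = 0.244), was not past the threshold, with a median of −1.17. Sqle, squalene epoxidase, read 4.33, 4.87 and 4.08 in heart and 8.04, 7.78 and 7.90 in cerebrum (−3.48). Msmo1 (−2.43), Lss (−2.10), Cyp51 (−1.88) and Hmgcs1 (−1.62), further steps of the path, were called, as was Srebf2 (−2.12), the transcription factor that drives it. With centring 15 were called toward cerebrum and 1 toward heart.

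Neuronal and synaptic genes were on the cerebrum side without exception among those tested. All 17 pan-neuronal genes were called (median −5.13), all 18 of synaptic vesicle release (−4.54), all 18 of the excitatory synapse (−5.09), all 14 of inhibitory synapses and interneurons (−5.41) and all 16 neuronal channels (−4.38). The heart mean was under the filter in 11 genes of each list, and in 12 of the inhibitory list, so the sizes are approximate. Syt1 read 4.45, 4.25 and 4.35 in heart and 12.16, 12.11 and 12.05 in cerebrum (−7.76 ± 0.09, adjusted p = 4.66e-09). Vesicle proteins Syn1 (−6.46) and Syp (−6.22) and the fusion clamp Cplx1 (−6.21) were as divided, whereas Vamp2 (−1.99) and Rab3a (−1.86), which other secreting cells use, were closer. Napb, the neural form of the alpha-SNAP adaptor, differed by −6.38.

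Receptor and channel genes varied in size. Gria2, the glutamate receptor subunit that blocks calcium entry, read 3.68, 3.35 and 3.80 in heart and 10.38, 10.30 and 10.57 in cerebrum (−6.81). Its relatives Gria1 (−6.08), Gria3 (−5.56) and Gria4 (−3.98), and the NMDA subunits Grin2a (−5.60) and Grin2b (−5.14), were also called. The scaffolds ranged from Shank1 (−5.11) to Shank3 (−0.86). On the inhibitory side, Gad1 (−5.99), which makes GABA, the GABA receptor subunits Gabra4 (−6.12) and Gabra2 (−6.02), and the interneuron peptides Cck (−6.39), Sst (−5.73) and Npy (−5.34) were called, while Gphn, the anchor of inhibitory receptors that also makes molybdenum cofactor, differed by −0.64. Among channels, Scn2a (−6.91 and −6.96 in its brightest transcripts) and Scn1a (−5.26), the sodium channels of axons, were far from Hcn2 (−1.78), which the heart also uses.

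Neural transcription factors and RNA-binding proteins were divided next. All 18 tested factors were higher in cerebrum (median −2.59), led by the cortical factors Tbr1 (−5.94), with 3.85, 3.58 and 3.66 against 9.81, 9.61 and 9.49, and Neurod6 (−5.08). Splicing regulators went both ways, with 14 of 23 higher in cerebrum, 6 in heart and 3 not past the threshold (median −1.61). Rbfox3, the neuronal nuclear antigen, differed by −5.84, Celf4 by −5.76 and Elavl4 by −4.68. The heart side held Rbm38 (4.31), Rbm20 (4.01), which splices titin, and Rbm24 (2.77). Rbm20 read 9.11, 8.66 and 8.84 in heart and 4.77, 4.75 and 5.06 in cerebrum. Ptbp1 (0.74), the repressor of neural exons, and Ptbp2 (−1.28), its neural relative, had opposite signs.

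Regional markers of the forebrain were mixed. Of 11 cortical genes, 10 were higher in cerebrum (median −2.95), with Lamp5 (−6.56), a marker of superficial layers and interneurons, at 10.43, 10.88 and 9.93 there. Calb1 (−6.54), which hippocampal and other neurons use as a calcium buffer, was among the most divided. The hippocampal list as a whole had 4 of 8 toward heart. Among these were Dsp (6.79), a desmosome protein, and Prox1 (2.62), which the heart also expresses. The striatal list changed with cerebrum replicate 3. With all arrays, 6 of 11 were higher in cerebrum and 2 in heart (median −1.83). Without cerebrum replicate 3, 5 of 8 tested were higher in cerebrum and 3 in heart, and the median was −0.91. Over the 14 measured genes the median was −1.772 under PS and −3.435 under MCT. In the MCT arrays 12 were called toward cerebrum and 1 toward heart. The list medians of the PS cerebrum replicates were 6.37, 6.23 and 8.31. The reason for these differences was not tested. The thalamic median was −0.73 over 9 tested genes, 0.57 without cerebrum replicate 3 and 0.46 without cerebrum replicate 2 (7 tested in each), and 0.02 with quantile scaling. Pde10a, the striatal phosphodiesterase, read 8.17, 8.16 and 9.76 in cerebrum (−3.39), and Rgs9, a striatal regulator of G proteins, read 5.38, 5.95 and 8.65 (−1.83, adjusted p = 0.0551). Rgs9 passed without cerebrum replicate 1 (−2.47, adjusted p = 0.0206) and narrowly without cerebrum replicate 2 (−2.19). Drd2 differed by 0.05 with all arrays (adjusted p = 0.965) and by 1.23 without cerebrum replicate 3 (adjusted p = 0.00138). Hypothalamic, pituitary, cerebellar and choroid plexus lists had 1 or 2 tested members each. The choroid plexus marker Ttr read 6.70, 4.34 and 6.60 in cerebrum, without a call (adjusted p = 0.0961), and passed without cerebrum replicate 2 (−1.96, adjusted p = 1.71e-05).

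Most glial genes were higher in cerebrum. Among 15 astrocyte genes, 12 were called toward cerebrum, 2 toward heart and 1 was not past the threshold (median −3.80). Slc1a2, the main glutamate transporter, read 4.62, 4.67 and 4.70 in heart and 11.45, 11.46 and 11.35 in cerebrum (−6.76, adjusted p = 4.66e-09). Gfap, the astrocyte filament, differed by −3.84 and S100b by −4.00. Gja1, connexin 43, couples astrocytes and also cardiomyocytes, and was higher in heart, with 11.26, 11.06 and 11.13 against 9.82, 9.74 and 9.98 (1.30, adjusted p = 1.11e-05). The other astrocyte marker toward heart was Ndrg2 (0.31), and Clu (0.15, adjusted p = 0.236) did not pass. All 14 tested myelin genes were higher in cerebrum (median −3.03), led by Ugt8a (−4.17), which makes galactocerebroside, Ermn (−4.14) and Mobp (−4.09). Of 6 precursor genes 4 were higher in cerebrum, led by Cspg5 (−4.74), and the 2 toward heart, Cspg4 (0.87) and Pdgfra (0.67), also mark pericytes and fibroblasts.

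Immune marker lists went in both directions. Of 12 microglial genes, 7 were higher in cerebrum, 1 in heart and 4 not past the threshold (median −0.77). The chemokine receptor Cx3cr1 (−2.35) and the purine receptors P2ry13 (−1.67) and P2ry12 (−1.59) were called, whereas the complement genes C1qa (0.34), C1qb (0.33) and C1qc (0.14), which macrophages of both tissues make, did not pass (adjusted p from 0.251 to 0.673). Without cerebrum replicate 2, C1qa (0.64) and C1qb (0.55) passed narrowly (adjusted p = 0.0497 for both). Of 11 measured genes of resident cardiac macrophages, 5 averaged under the filter, and the 6 tested were higher in heart. The median over the 11 measured was 2.16, and in 3 of the 6 the cerebrum mean was under the filter. Lyve1, also a lymphatic marker, read 8.61, 9.23 and 9.09 against 5.09, 5.39 and 5.20 (3.75), and F13a1 differed by 3.21. Antigen presentation was higher in heart for 9 of 12 genes (median 1.72), and 0 were higher in cerebrum. The class II genes spread over the heart arrays, with H2-Ab1 at 7.50, 9.64 and 8.47 against 5.70, 5.35 and 5.30 (3.09 ± 0.47). B2m, the class I light chain, read 10.03, 11.26 and 10.12 in cerebrum, and without cerebrum replicate 2 the list had 11 called.

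Vessel lists differed in direction. All 14 general endothelial genes were higher in heart (median 2.41), among them the VEGF receptor Kdr (3.64) and the junction cadherin Cdh5 (3.11), which read 10.14, 10.32 and 10.24 against 7.22, 7.42 and 6.74. All 12 smooth muscle and pericyte genes were higher in heart as well (median 2.06), although Des and Abcc9 among them are also cardiomyocyte genes. In contrast, 8 of 13 barrier genes were higher in cerebrum, 3 in heart and 2 not past the threshold (median −1.20). Mfsd2a, the lysolipid transporter that keeps the barrier closed, read 4.31, 4.35 and 4.22 in heart and 9.24, 8.47 and 9.43 in cerebrum (−4.75). The organic anion transporters Slco1a4 (−3.96) and Slco1c1 (−3.87) were close behind, and Cldn5, the tight junction claudin, did not pass (−0.19, adjusted p = 0.414). Abcg2, a drug efflux pump counted with the barrier, was higher in heart (1.10). Capillary genes of the heart were called in 9 of 11 cases (median 4.01), with the water channels Aqp7 (5.59) and Aqp1 (5.23) near Fabp4 and Cd36.

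Fibroblast genes were higher in heart in 19 of 20 cases (median 1.94). Dpt, dermatopontin, read 9.03, 10.07 and 9.44 against 3.06, 3.24 and 3.24 (6.33), and the proteoglycans Lum (4.61) and Dcn (4.25) were far apart as well. Col1a1, the main fibrillar collagen, read 6.37, 8.57 and 6.60 in heart and 5.51, 5.65 and 5.54 in cerebrum (1.61 ± 0.52, adjusted p = 0.023). Heart replicate 2 was the highest, and without it the difference was 0.92 (adjusted p = 0.000276). Col1a1 lost its call without cerebrum replicate 1 or 3 (adjusted p = 0.0654 and 0.0558). Without heart replicate 2, 17 of 18 fibroblast genes were called and the median was 1.63. Markers of neighbouring tissues were mostly low. In the adipocyte list 1 of the measured genes passed the filter, Car3 (3.63), which muscle also makes, while Adipoq read at most 4.66 in heart. Of the skeletal muscle list, Acta1 (3.19), which stressed myocardium also expresses, and Casq1 (3.17) passed and were called, and the fast myosins Myh1, Myh2 and Myh4 lay between 3.48 and 4.35 in heart. In the blood list the red-cell genes Alas2 (3.14) and Slc4a1 (1.64) were called toward heart. Their part in the other results was not tested.

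Of 5 tested receptors of adrenaline and acetylcholine, 2 were higher in heart and 3 in cerebrum. Of 6 genes of neurotrophic factors and their receptors, 1 was higher in heart and 5 in cerebrum, or 1 and 4 with centring or quantile scaling. Gfra1 (−0.42, adjusted p = 0.0306) lost its call without heart replicate 1 or 3, or cerebrum replicate 2 or 3. Chrm2, the muscarinic receptor through which the vagus slows the heart, was higher in heart, with 10.83, 10.74 and 10.93 against 8.84, 8.77 and 8.86 (2.01, adjusted p = 4.63e-07). Its relatives Chrm3 (−4.38), Chrm1 (−3.82) and Chrm4 (−2.82) were higher in cerebrum. Among receptors of neurotrophins, Ntrk2, the BDNF receptor, read 3.95, 4.08 and 4.21 in heart and 10.12, 9.91 and 10.07 in cerebrum (−5.95), and Ntrk3 differed by −4.06. Gfra2, which binds neurturin, was higher in cerebrum (−3.72), while Nrtn, the ligand itself, was higher in heart, with 6.53, 6.60 and 6.89 against 5.28, 5.53 and 5.26 (1.32, adjusted p = 4e-05). Bdnf, Gdnf, Ngfr and Ret averaged under the filter.

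None of the 3 genes that make or convert PS was called with all arrays. Ptdss1, which makes PS from phosphatidylcholine, read 8.67, 8.72 and 8.65 in heart and 8.72, 8.56 and 8.61 in cerebrum (0.05 ± 0.085, adjusted p = 0.608), with overlapping tissues. Ptdss2, which uses phosphatidylethanolamine, differed by −0.16 (adjusted p = 0.124) and the decarboxylase Pisd by −0.27 (adjusted p = 0.082). Pisd passed without cerebrum replicate 3, at −0.39 (adjusted p = 0.0157). The rest of phospholipid synthesis was divided: of 16 genes 8 were higher in cerebrum, 3 in heart and 5 not past the threshold (median −0.26). The last step to phosphatidylcholine, Chpt1, was higher in heart (2.48), as were Pcyt1a (1.71) and the cardiolipin remodeller Taz (1.18). Pcyt1b (−3.18), the CTP:phosphocholine enzyme of neurons, Cds1 (−2.98) and Etnk1 (−1.67) were higher in cerebrum. Pcyt2 was called at −0.21 (adjusted p = 0.0476), lay at 0.01 after centring, and lost its call when any 1 of the 6 arrays was left out. With centring the list had 5 toward heart and 7 toward cerebrum.

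Proteins that move or read PS differed by type. Of 18 genes 8 were higher in each tissue and 2 did not pass (median 0.05). The flippases Atp8a2 (−1.78) and Atp8a1 (−1.47) and their chaperone Tmem30a (−0.71) were higher in cerebrum, and Atp11a (1.37) in heart. Scramblases were split between Xkr4 (−2.78) in cerebrum and Plscr1 (3.30) and Plscr4 (2.26) in heart. Among the TAM receptors, which bind PS through bridging proteins, Tyro3 (−3.11) and Mertk (−1.64) were higher in cerebrum and Axl (1.48) in heart, as were the bridges Pros1 (1.69) and Gas6 (1.18). Adgrb1, a PS receptor of astrocytes and neurons, read 5.20, 4.86 and 5.38 in heart and 9.64, 9.43 and 9.61 in cerebrum (−4.41).

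Genes of the Elongator complex and wobble uridine modification of transfer RNA, the path affected in familial dysautonomia, were called in both directions. Of 8 tested, 4 were higher in cerebrum, 1 in heart and 3 not past the threshold (median −0.25). Elp2, an accessory subunit, read 8.0, 8.08 and 7.89 in heart and 9.25, 9.31 and 9.03 in cerebrum (−1.21). The catalytic subunit Elp3 differed by −0.45, Elp5 by −0.35 and the methyltransferase Alkbh8 by −0.87. Dph3, a cofactor, was higher in heart, with 9.16, 9.15 and 9.05 against 7.95, 8.21 and 7.85 (1.12). The directions of this list hinged on scaling: after centring 3 were called toward heart and 2 toward cerebrum, with a median of −0.03.

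Activity and stress genes pointed both ways. Of 19 immediate early genes, 13 were higher in cerebrum, 5 in heart and 1 not past the threshold (median −1.61). Npas4, which neurons induce on calcium entry, read 4.24, 4.34 and 3.99 in heart and 7.37, 8.59 and 8.30 in cerebrum (−3.90), followed by Nr4a2 (−3.64), Egr3 (−3.59) and Arc (−3.18). The 5 toward heart included Klf4 (2.23), Ccn1 (2.08) and Atf3 (1.70). Among small heat shock proteins, Hspb7 (6.44), Hspb8 (4.75) and Hspb6 (4.64) were higher in heart, with their partner Bag3 (4.04), while Hspa12a (−2.68), Hsph1 (−1.89) and Hsp90aa1 (−1.38) were higher in cerebrum. Antioxidant enzymes were higher in heart in 15 of 18 cases (median 1.05), led by Gpx3 (4.57) and Nqo1 (4.05), with Gclc (−1.43) the exception. Glucocorticoid targets had 5 toward heart and 4 toward cerebrum, with Tsc22d3 (1.47) and Zbtb16 (1.23) in heart. That split became 8 and 2 after centring. Of 14 clock genes 6 were higher in cerebrum, 2 in heart and 6 not past the threshold (median −0.35), led by Npas2 (−2.98) and Arntl (−2.26), with which it pairs. With centring 4 clock genes were higher in cerebrum and 3 in heart (median −0.13).

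Housekeeping sets showed how much of the called share was small. Of 26 cytosolic ribosomal proteins 20 were higher in heart, 1 in cerebrum and 5 not past the threshold, with a median of only 0.44. Of 24 proteasome genes 14 were higher in heart and 10 not past the threshold (median 0.38). Both depended on scaling: centring gave 25 ribosomal genes toward heart (median 0.65) and 21 proteasome genes (0.60), and quantile scaling 16 (0.36) and 15 (0.45). Among 14 genes used as references, 4 were higher in heart, 5 in cerebrum and 5 not past the threshold. Gapdh (0.04) and Polr2a did not pass, whereas Rplp0 (1.45), Sdha (1.21), Ywhaz (−1.50) and Ppia (−0.97) were called, and Actb, cytoplasmic actin, differed by −0.59. After centring the counts were 9 and 4.

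MicroRNA loci were measured by 306 transcripts, 39 of which passed the filter. Of these 8 were higher in heart, 14 in cerebrum and 17 not past the threshold, with a median of −0.04. A probe of this array can read the hairpin or a longer host RNA, so a value is that of the locus. Mature sequences from RefSeq (GRCm38.p6) are shown for 4 loci higher in cerebrum, with the seed, bases 2 to 8, in capitals. Mir9-2 gives miR-9-5p at chr13:83738821-83738843 and miR-9-3p at chr13:83738858-83738879. The others are miR-134-5p at chr12:109734145-109734166, miR-181b-5p at chr1:137966650-137966673 and miR-138-5p at chr8:94324312-94324334, all on the plus strand.
miR-9-5p: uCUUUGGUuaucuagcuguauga
miR-9-3p: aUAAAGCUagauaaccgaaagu
miR-134-5p: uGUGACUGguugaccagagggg
miR-181b-5p: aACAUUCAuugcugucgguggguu
miR-138-5p: aGCUGGUGuugugaaucaggccg
Mir9-2, known for its role in neural progenitors, read 2.94, 3.14 and 3.40 in heart and 7.70, 7.28 and 7.41 in cerebrum (−4.30 ± 0.15, adjusted p = 1.55e-07), and it differed by −3.91 in the MCT arrays. Mir134 differed by −2.36 (adjusted p = 4.34e-05), Mir181b-1 by −2.28 and Mir138-2, which lies within Nup93, by −1.37. The 13 mature sequences of the 8 loci called with a difference above 1 had 13 distinct seeds, so none shared one. Of these 8 loci, 4 (Mir134, Mir341, Mir485 and Mir487b) lie on chromosome 12, and Mir341 lies within Rian, an imprinted transcript. Imprinted genes were mostly cerebral, with 7 of 11 higher there and 2 in heart (median −1.93). Meg3, the noncoding RNA of that region, differed by −3.96 and Peg3 by −3.72, while Grb10 (2.10), a brake on insulin signalling, was higher in heart.

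The same comparison in the MCT arrays came out much alike in extent, with 9610 of 12734 transcripts called (75.5%). Of 12519 transcripts tested under both treatments, 8402 were called in both, and 8360 of those in 1 direction. The PS arrays alone called 1112 and the MCT arrays alone 1046, which by itself does not show a difference. The difference between the 2 tissue differences was therefore tested over all 12 arrays. It was called for 194 of 12731 transcripts (1.52%), 140 positive (1.1%) and 54 negative (0.424%). A positive value means that heart minus cerebrum was larger under PS. At an unadjusted p under 0.05, 2448 transcripts passed. The count rested on single arrays, from 3 without MCT cerebrum replicate 1 to 1629 without MCT heart replicate 3. Apart from PS cerebrum replicate 2, the PS and MCT arrays also differed in Xist, as given above. The sex-linked Ddx3x was among the calls (0.77).

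List members called in this test stand beside 1.52% over all transcripts, and no list was tested as a set. It called 4 of 17 measured pan-neuronal genes, 3 of 14 imprinted genes, 2 of 16 oligodendrocyte and myelin genes and 2 of 14 glucocorticoid targets. Every other list had 1 or 0 calls. These included 1 of 15 of fatty acid uptake, 1 of 21 of fatty acid oxidation, 1 of 5 of ketone use and 0 of 27 of the sarcomere and Z-disc. Ecel1, an endopeptidase of neurons, read 5.30, 5.21 and 5.81 in cerebrum under PS and 7.77, 8.31 and 7.76 under MCT, with heart between 4.49 and 4.95 throughout. Its tissue difference was −0.67 under PS and −3.29 under MCT, 2.62 apart ± 0.26 (adjusted p = 0.00304). Peg10, an imprinted retrotransposon-derived gene, read 7.45, 8.10 and 7.57 in cerebrum under PS and 9.24, 9.65 and 9.23 under MCT (2.27, adjusted p = 0.0125). For both, PS and MCT cerebrum arrays did not overlap. Both were called in this same test, so the lack of overlap is no separate support. The share of all transcripts without such overlap was not counted. Nexn, an actin-binding Z-disc protein, was lower in PS cerebrum, at 3.69, 3.60 and 4.46 against 5.59, 5.90 and 5.29, and its tissue difference was 6.49 under PS and 4.35 under MCT (2.14, adjusted p = 0.0125). The 1 called gene of fatty acid uptake, Lpl (0.94), of ketone use, Slc16a1 (0.94), and of fatty acid oxidation, Acaa2 (0.75), each had a larger heart excess under PS, with adjusted p of 0.0422, 0.0214 and 0.0434.

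Other calls went the opposite way or came from heart. The peptide genes Npy (−1.18) and Pcsk1n (−1.10), an inhibitor of prohormone convertase, had larger cerebrum excesses under PS. Npy read 10.78, 11.20 and 10.76 in cerebrum under PS and 9.92, 9.86 and 9.89 under MCT (adjusted p = 0.0125). Fam107a, a glucocorticoid-responsive gene, separated in the heart arrays, which read 8.76, 9.05 and 8.98 under PS and 6.76, 7.02 and 7.56 under MCT (1.67, adjusted p = 0.0125). B3galt2, a galactosyltransferase, was lower in PS heart, at 6.72, 6.98 and 6.71 against 8.42, 8.21 and 7.97 (−1.46, adjusted p = 0.0116). Only 42 transcripts were called under both treatments with opposite signs. Rarb, a retinoic acid receptor of striatum and heart, was 1 of these, at 1.46 under PS and −0.46 under MCT (1.92, adjusted p = 0.0494). Its cerebrum values under PS were 6.60, 7.03 and 8.24, highest in replicate 3, where the striatal genes were high. Under MCT its cerebrum values were 9.06, 9.32 and 9.14. Hnrnpa3, an RNA-binding protein gene, held 9 of the 42 entries, and its brightest differed by 0.48 under PS and −0.65 under MCT. Some entries of the 42, including some of Hnrnpa3, had the same values on every array, so they are not separate measurements.

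**Figure D5:**
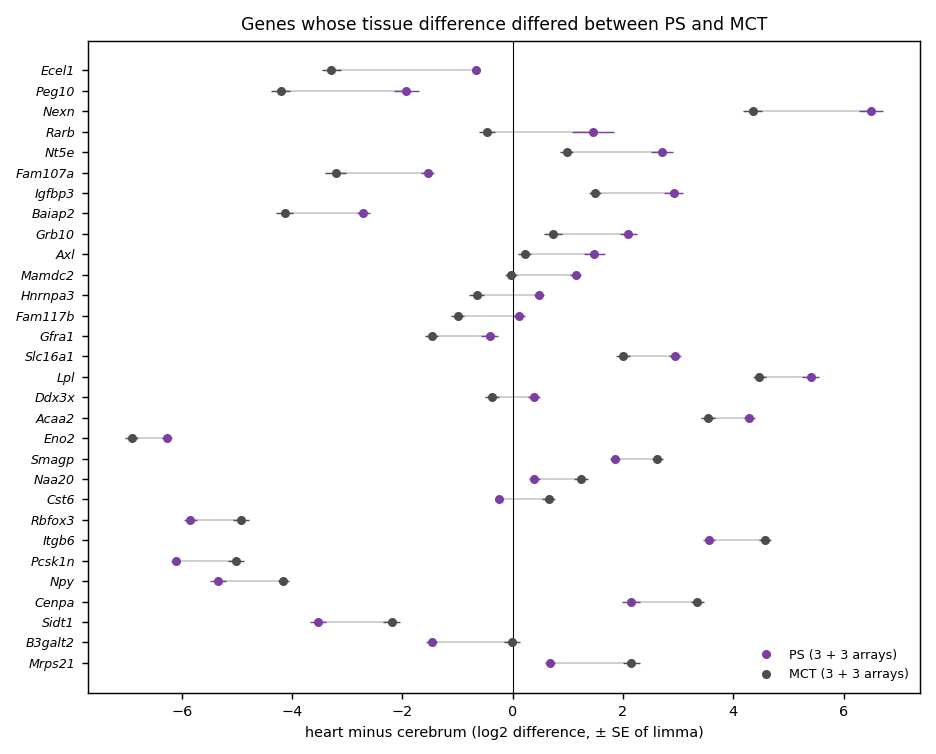
Heart minus cerebrum difference under PS and under MCT for genes called in the test of their difference, with bars showing the SE (n = 3 arrays per tissue and treatment; no SE where a gene averaged under the filter under PS). Ecel1 lies at −0.67 under PS and −3.29 under MCT, and Npy at −5.34 and −4.16.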

How the data were processed

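RNA of heart and cerebrum was hybridised to Affymetrix mouse gene arrays, 3 arrays for each tissue and treatment. The deposited values, 1 per transcript and array, were taken as log2 intensities from their range. Per the submitters' processing notes, the authors used Affymetrix Expression Console. The sources used here do not give its version, background correction, normalization or genome build. Array medians lay between 4.89 and 5, and the values were used as deposited. The number of arrays limits the precision.

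Of 35556 deposited transcripts, 21218 had 1 gene symbol in the platform annotation (18820 distinct symbols), 1881 had several and 12457 had no entry. Entrez identifiers of 21185 matched RefSeq and changed 0 symbols. Transcripts entered a test where their mean over its arrays reached the 40th percentile (5.22 under PS, 5.23 under MCT and over 12 arrays). Tests were run with lmFit and eBayes of limma 3.58.1 in R 4.3.3, Benjamini-Hochberg adjustment and a threshold of 0.05. Heart was compared with cerebrum under PS, under MCT, and as the difference between these differences. The scripts were tested on simulated data. Scaling, filter, threshold, trend, weights, the replicate block and left-out arrays were varied. 1 item is not reported here.

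The members and gene lists were chosen with earlier results of these data known. Named genes were the 15 largest differences in each direction, up to 4 per list by size and up to 4 against its majority, all members of lists with 8 or fewer measured and of isoform families, and up to 10 in each direction by lowest p for the difference between treatments. Other genes named were chosen after their values were seen, such as Vamp2, Gfap and Axl.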

Additional observations from a re-analysis of the deposited data

Results flagged for a closer look

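The tissue difference of 30 named transcripts differed between PS and MCT by the interaction test over 12 arrays (limma, adjusted p under 0.05). For each, the value given is heart minus cerebrum under PS minus the same under MCT, in log2 units. Those described above are Ecel1 (2.623), Peg10 (2.273), Nexn (2.137), Rarb (1.917), Fam107a (1.67), Hnrnpa3 (1.13), Slc16a1 (0.94), Lpl (0.937), Ddx3x (0.766), Acaa2 (0.746), Pcsk1n (−1.096), Npy (−1.183) and B3galt2 (−1.457). The imprinted gene Grb10 (1.367), the TAM receptor Axl (1.263), the neuronal enolase Eno2 (0.644) and the neuronal splicing factor Rbfox3 (−0.916) belonged to lists described there, and their tissue differences kept 1 direction under both treatments.

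Nt5e, the ectonucleotidase that makes adenosine, read 7.74, 7.98 and 7.74 in heart and 4.63, 5.28 and 5.43 in cerebrum under PS. Under MCT it read 7.14, 7.27 and 7.12 in heart and 6.23, 6.32 and 6.04 in cerebrum. Its difference between treatments was 1.727 (adjusted p = 0.0125). The treatments did not overlap in either tissue, which is no separate support for a gene called in this same test. Mrps21, a mitochondrial ribosomal protein, read 10.12, 10.25 and 10.25 in PS cerebrum and 9.10, 9.08 and 8.70 in MCT cerebrum (−1.476, adjusted p = 0.0116).

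Baiap2 (1.42), a scaffold of dendritic spines, and Igfbp3 (1.42), a carrier of insulin-like growth factors, were positive in this test. Mamdc2 (1.173), Fam117b (1.12) and Gfra1 (1.05), a receptor for GDNF, were positive too. Sidt1 (−1.34), Cenpa (−1.203), the centromeric histone, Itgb6 (−1.017), an integrin subunit, Cst6 (−0.907), Naa20 (−0.853) and Smagp (−0.77) were negative. The part of sex-linked composition and of single arrays in these values was not tested.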

How the results depend on the processing

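The 9665 calls under PS became 3884 (1756 toward heart, 2128 toward cerebrum) when a difference over 1 was tested (limma's treat), and leaving out 1 array gave 8951 to 9423 (4501 to 4735 and 4291 to 4891). At a 60th percentile filter 3087 were toward cerebrum. All calls numbered 8614 without cerebrum replicate 2 and heart replicate 3 together, and 9304 without heart replicate 2 and cerebrum replicate 3, both chosen after the data were seen. Under MCT the 9610 calls became 3925 (1589 and 2336) with treat and 6396 at the 60th percentile (3225 toward cerebrum), 7293 were toward heart with no filter, and leaving out 1 array gave 8619 to 10315 (4003 to 4749 and 4463 to 5566). The 194 calls of the difference between treatments moved most. They became 1 at an adjusted p under 0.01 (1 positive, 0 negative, 2448 at an unadjusted p under 0.05) and 0 with limma's treat (0 and 0, 36 at an unadjusted p under 0.05), and 76 were positive after centring. Leaving out 1 array gave 3 to 1629 (2 to 972 positive, 1 to 657 negative), with 38 without PS cerebrum replicate 1, 39 without MCT cerebrum replicate 2, and 364 without PS cerebrum replicate 3. The cause was not tested. Replicate numbers as a block gave 22 (14 positive, 8 negative), against 9596 under PS and 9709 under MCT. Deviations of same-numbered PS arrays correlated at 0.119, 0.101 and 0.053, each best with its own number. This is a hint from the data and not the design, so the arrays share only a number. The PS arrays numbered 2 differed in Xist, high in heart and low in cerebrum, so a shared number cannot be taken to mean 1 animal. Of 302 genes named under PS, 232 kept direction and side of the threshold in every alternative counted in which they were tested. Of 30 named for the difference between treatments, 0 did: 0 were called with treat, 3 were still called without MCT cerebrum replicate 1 and 14 were with the block. The adjusted p under 0.01 and a fit with 1 transcript per gene were not counted here. At the 60th percentile filter 239 of the 302 were tested. Pcyt2 turned to 0.01 with centring, and Xist ranged from −0.658 to 2.612 with 1 array left out, turning without cerebrum replicate 2, and lay at −0.595 without heart replicate 3 as well. Levels near background limit the size of differences.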
